A study of Homo sapiens with 5 samples.

Results

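The genes JUN, JUNB, JUND, FOS, FOSL1 and FOSL2 encode the JUN and FOS families of the transcription factor AP-1. Their surroundings were described here in chromatin immunoprecipitation sequencing (ChIP-seq) data of 2 rhabdomyosarcoma cell lines. A listed region was counted where it overlapped a fixed hg19 window around a gene: 59.19 to 59.3 Mb of chromosome 1 for JUN, 12.85 to 12.96 Mb and 18.34 to 18.45 Mb of chromosome 19 for JUNB and JUND, 75.69 to 75.8 Mb of chromosome 14 for FOS, 65.6 to 65.72 Mb of chromosome 11 for FOSL1, and 28.56 to 28.69 Mb of chromosome 2 for FOSL2. The 6 windows held 95 of the 46408 RH18 H3K27ac regions, 62 of the 43159 RD H3K27ac regions and 26 of the 11136 RH18 MYF5 peaks, or 183 of 100703 entries in all.

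RH18 and RD are established human cell lines from rhabdomyosarcoma, a childhood sarcoma that resembles developing skeletal muscle, of the type that lacks the PAX-FOXO1 gene fusion. The 5 samples were H3K27ac, MYF5 and input DNA in RH18, and H3K27ac and input DNA in RD. The cells were grown in DMEM with serum and fixed in 1% formaldehyde for 12 minutes, and the labels give no drug or other treatment. H3K27ac, acetylation of histone H3 at lysine 27, marks active promoters and enhancers, and MYF5 is a basic helix-loop-helix factor of muscle progenitors. Each group held 1 library, so no value has a replicate error, no difference was tested, and line and library cannot be told apart. All intervals below cover counting error only. The lines were not checked against muscle marker genes, since no hg19 annotation was used here.

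AP-1 is a dimer of leucine zipper proteins. JUN proteins pair with each other or with FOS proteins, whereas FOS proteins need a JUN partner, and the dimers bind a short palindrome found in many enhancers. FOS is a classic immediate-early gene that growth factors switch on through the MAP kinase cascade. FOSL1 and FOSL2 encode FRA1 and FRA2, FOS relatives without the strong transactivation domain of FOS, and JUNB and JUND differ from JUN in activity and in stability. RAS signalling, which feeds this cascade, is often mutated in fusion-negative rhabdomyosarcoma. Histone acetylation near these genes does not give their RNA level, which was not measured.

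Promoter sequences were taken from RefSeq (GRCh38.p14), in which 5 of the 6 genes matched by symbol and FOSL1 did not. The positions given with them are on that build and were not placed on the hg19 lists. JUN and JUND are shown because each holds an exact match to the cyclic AMP response element or its variant given below, which JUN and ATF dimers bind. FOS and FOSL2 are shown because, of the 5 matched genes, their windows held the stretches with the lowest and the highest RH18 over RD ratio. Each sequence is the 250 bases before the annotated start, and capitals mark matches to the motifs given below it.
JUN, chr1:58784048-58784297, minus strand: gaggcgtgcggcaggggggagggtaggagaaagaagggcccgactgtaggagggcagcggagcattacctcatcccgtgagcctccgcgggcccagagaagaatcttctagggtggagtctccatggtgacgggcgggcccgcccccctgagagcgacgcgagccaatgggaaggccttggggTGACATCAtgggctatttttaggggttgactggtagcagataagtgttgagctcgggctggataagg
JUND, chr19:18281623-18281872, minus strand: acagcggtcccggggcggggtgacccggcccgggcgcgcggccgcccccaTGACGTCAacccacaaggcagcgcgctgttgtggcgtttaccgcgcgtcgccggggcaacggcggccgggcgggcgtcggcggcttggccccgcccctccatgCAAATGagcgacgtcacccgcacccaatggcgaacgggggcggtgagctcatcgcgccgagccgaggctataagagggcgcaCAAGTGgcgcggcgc
FOS, chr14:75278578-75278827, plus strand: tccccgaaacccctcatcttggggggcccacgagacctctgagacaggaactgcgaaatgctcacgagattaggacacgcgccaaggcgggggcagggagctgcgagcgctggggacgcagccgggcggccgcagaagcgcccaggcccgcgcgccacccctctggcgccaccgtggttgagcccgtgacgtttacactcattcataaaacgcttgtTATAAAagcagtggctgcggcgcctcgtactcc
FOSL2, chr2:28392608-28392857, plus strand: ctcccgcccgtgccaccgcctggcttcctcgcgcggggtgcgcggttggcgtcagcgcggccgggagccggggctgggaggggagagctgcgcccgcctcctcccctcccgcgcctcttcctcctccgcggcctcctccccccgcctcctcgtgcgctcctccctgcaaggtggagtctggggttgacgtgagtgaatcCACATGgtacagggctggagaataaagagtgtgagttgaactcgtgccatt

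Both strands of these 250 bases were searched in all 35116 promoters of the table. The AP-1 site TGANTCA was in 6.57% of them and in none of the 5 matched genes. The cyclic AMP response element TGACGTCA was in 1.65% and in JUND, starting 200 bp before the start. Its variant TGACATCA was in 2.37% and in JUN, starting 67 bp before the start. The E-box CANNTG, the motif of MYF5 and its relatives, was in 61.8%, with 2 matches in JUND, 1 in FOSL2 and none in JUN, JUNB or FOS. The TATA motif TATAAA was in 10.7%, and began 33 bp before the start of FOS and 31 bp before that of JUNB. The CArG box, which binds serum response factor, was in 1.16% of promoters and in none of the 5. Only exact matches to these letters within the 250 bases were searched. Sites farther upstream or with other letters were not looked for, so a missing match does not show that a promoter lacks such a site. A match is a description of letters and not of binding.

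The genes were unequal in their protein-coding neighbours, which were counted around each gene in RefSeq and not within the hg19 windows. Within 55 to 65 kb of each gene, the RefSeq table listed no other protein-coding gene beside JUN or FOS and 1 beside FOSL2 (BABAM2). It listed 4 beside JUND, 8 beside JUNB and 11 beside FOSL1, CFL1, MUS81 and DRAP1 among them. A region in the windows of JUNB, JUND, FOSL1 and FOSL2 may therefore belong to a neighbour.

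In RH18 the FOSL1 and FOSL2 windows had more listed regions and more covered bases than the other 4. The FOSL2 window held 31 RH18 regions covering 27.6 kb, against 13 RD regions covering 6.0 kb. The FOSL1 window held 26 RH18 regions covering 28.1 kb, against 12 RD regions covering 9.13 kb. The counts in the other windows lay close together: 7 and 7 in RH18 and RD for JUN, 12 and 12 for JUNB, 8 and 10 for JUND, and 11 and 8 for FOS. Covered bases were nevertheless more in RH18 in all 6 windows. They came to 6.02 kb in RH18 and 4.26 kb in RD for JUN, 13.1 and 6.32 kb for JUNB, 8.47 and 6.29 kb for JUND, and 4.43 and 2.68 kb for FOS. The whole RH18 list also covered more than the whole RD list, at 32.5 against 21.2 Mb. The order of windows by covered bases was FOSL1, FOSL2, JUNB, JUND, JUN and FOS in RH18, and FOSL1, JUNB, JUND, FOSL2, JUN and FOS in RD. Covered bases of FOSL1 and FOSL2 in RH18, and of JUNB, JUND and FOSL2 in RD, differed little.

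**Figure D1:**
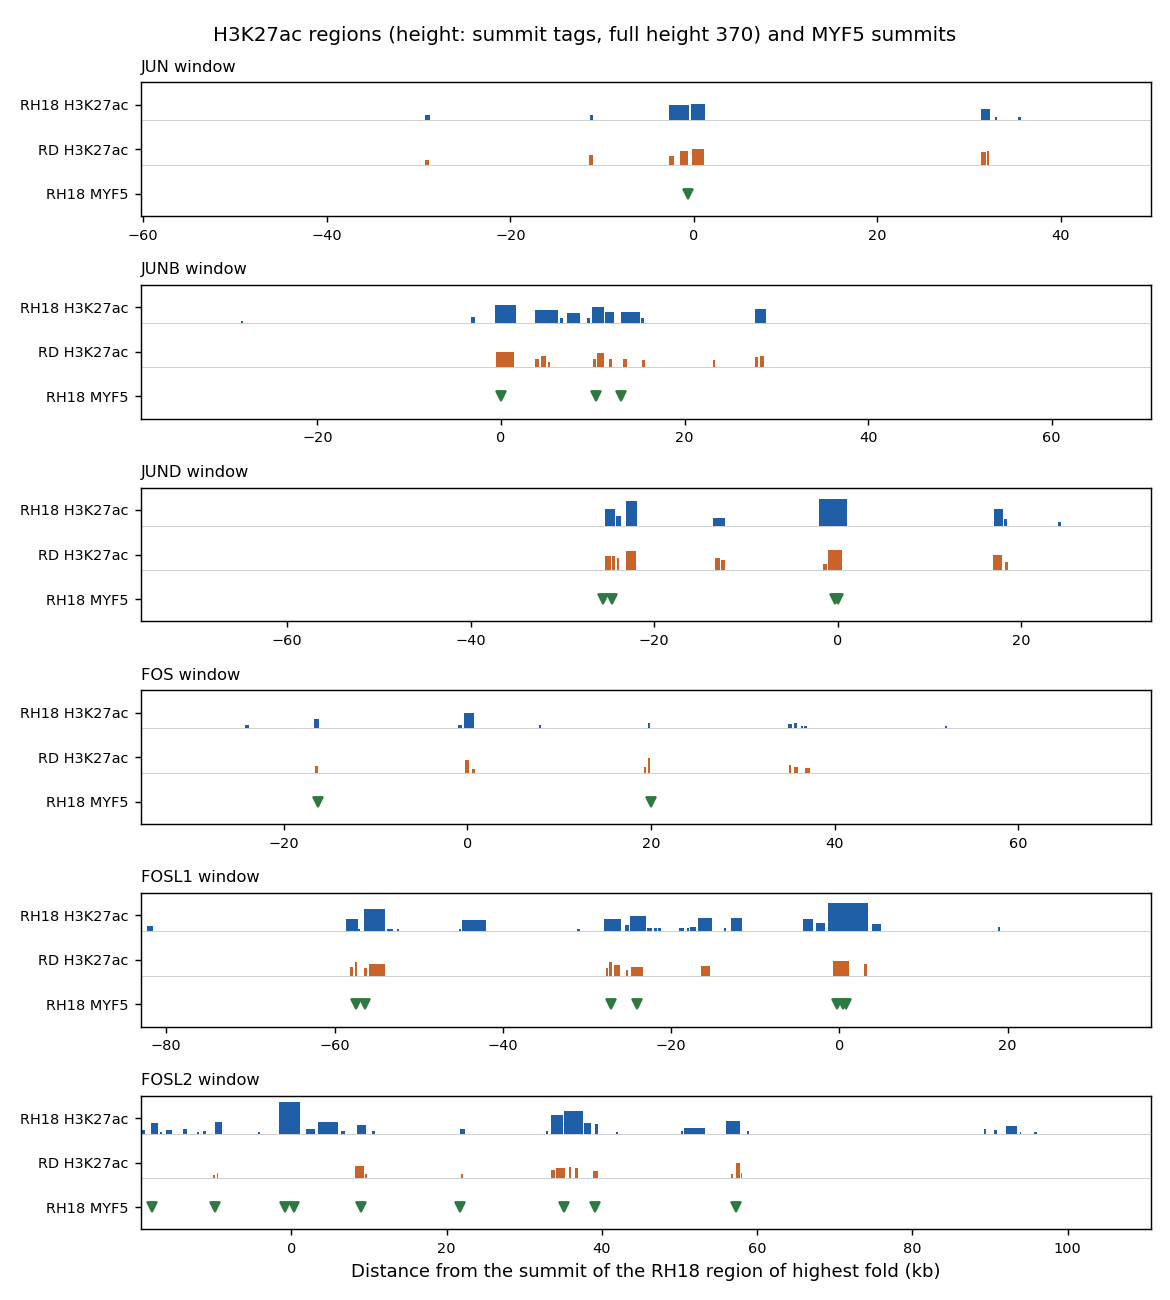
Map of the 6 windows, with distance in kb from the summit of the RH18 region of highest fold on the x axis. Boxes are H3K27ac regions of RH18 (top) and RD (middle), as high as their summit tags up to 370, and triangles are MYF5 summits in RH18; the highest box, in the FOSL2 window, has no RD region under it.

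**Figure D2:**
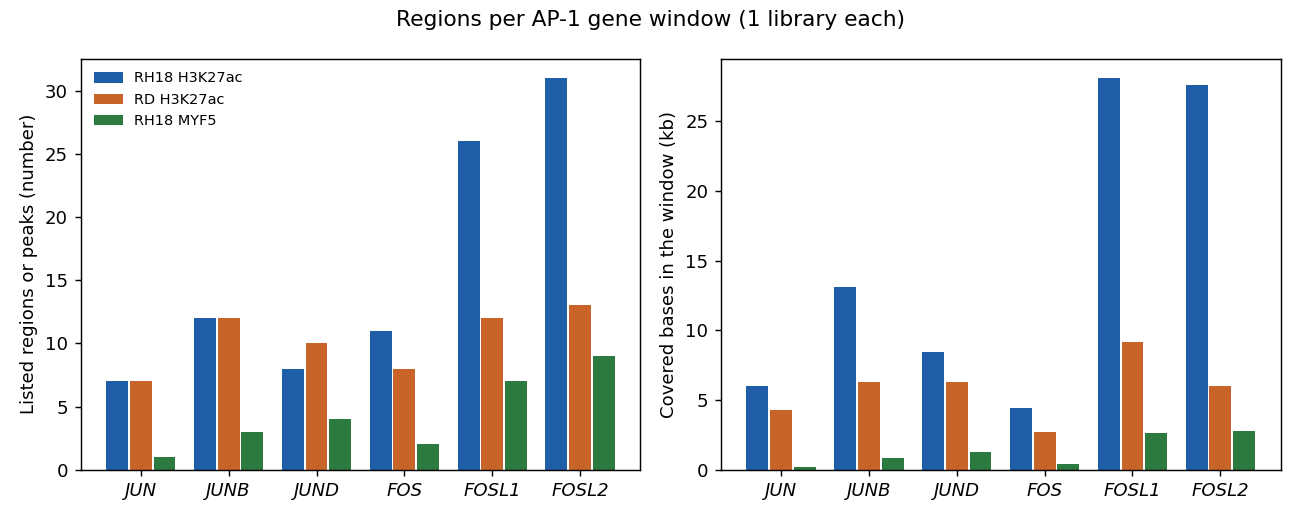
Number of listed regions (left) and covered kb (right) per window, as bars for RH18 H3K27ac, RD H3K27ac and RH18 MYF5, with 1 library each and no error bars. The RH18 bars of FOSL1 (26 regions, 28.1 kb) and FOSL2 (31 regions, 27.6 kb) stand above all others.

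Set against all windows of the same length laid end to end along the chromosomes, 0.188% held at least 31 RH18 regions, the FOSL2 count, and 2.39% held at least the 13 of RD. For FOSL1 the corresponding shares were 0.293% in RH18 and 2.53% in RD. For JUN they were 7.59% and 6.82%, for JUNB 2.7% and 2.17%, for JUND 6.17% and 3.36%, and for FOS 3.31% and 5.34%. Much of the genome has no listed region, so the shares were also taken among windows with a region in each line. There, 0.527% of windows held as many RH18 regions as FOSL2 and 0.829% as many as FOSL1, against 6.55% and 7.18% for the RD counts. For the other 4 genes these shares ran from 8.06 to 22.0% in RH18 and from 6.51 to 20% in RD.

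Regions were also joined across gaps of up to 12.5 kb, and each joined stretch was ranked by its summed product of fold and width. A stretch of 63.6 kb with 24 regions in the FOSL1 window had rank 33 of 18842, and a stretch of 78.8 kb with 26 regions in the FOSL2 window rank 52. The highest stretches of the other windows had ranks 446 for JUND, 515 for JUNB, 857 for JUN and 3527 for FOS. Within the RD list of 16671 stretches, the best ranks were 711 for JUND, 924 for FOSL2, 1118 for JUNB, 1453 for FOSL1, 2631 for JUN and 6247 for FOS. These ranks hold within a list and depend on the joining distance, which also changes the number of stretches. With 5 kb the RH18 ranks of FOSL1 and FOSL2 were 104 and 119 of 23674, and with 25 kb 60 and 93 of 14287. The RH18 rank of JUND was 795 with 5 kb and 246 with 25 kb, and that of JUNB 472 and 272. The order in RD changed with the distance: with 5 kb JUNB came first at 1154 of 20127, ahead of FOSL1 at 1306, JUND at 1776 and FOSL2 at 1973. With 25 kb the RD ranks among 13288 stretches were 407 for JUND, 720 for FOSL1, 747 for FOSL2 and 2380 for FOS.

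The next question was how much of this acetylation was listed in the other line. Of the 95 RH18 regions, 39 (41.1%, 95% interval 31.1 to 51.6%) overlapped an RD region, close to the 45.1% of the whole RH18 list. Of the 62 RD regions, 58 (93.5%, 84.3 to 98.2%) overlapped an RH18 region, against 60.0% of the whole RD list. All 6 windows hold RH18 regions, so this share describes the windows and was not tested. RD regions in the windows also had more summit tags, explained below, with a median of 113.5 against 85 in the whole RD list. When the overlap had to span at least 50% of each region, 35.5% of the RD regions in the windows were shared, against 27.5% of the whole RD list, and 23.2% of the RH18 regions, against 25.6% of the whole RH18 list. The RH18 share differed between windows, with 7 of 8 for JUND, 5 of 7 for JUN, 7 of 12 for JUNB, 6 of 11 for FOS, 7 of 26 for FOSL1 and 7 of 31 for FOSL2. Without the FOSL1 and FOSL2 windows it was 65.8% (25 of 38). The local background under RD regions was higher in the windows than in the whole RD list, with medians of 4.7 and 2.34 times the lowest, and was 1.52 times in both sets of RH18 regions.

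RH18 regions without an RD counterpart were narrower and rested on fewer tags. Tags here are the sequenced fragments piled up at a region's summit, worked out from each entry's fold and p-value. The 56 unshared RH18 regions had a median width of 331 bp and a median of 37.5 tags, against 1072 bp and 139 tags for the 39 shared. In the whole list the medians were 376 bp and 42 tags for unshared regions and 692 bp and 95 tags for shared regions. Of the 24 unshared regions in the FOSL2 window, 6 had at least the list's median of 57 tags, and in the FOSL1 window 6 of 19 did. The share of all unshared RH18 regions past that level was not counted. The unshared regions had a median of 35.5 tags in the FOSL2 window and 37 in the FOSL1 window, against the 42 of all unshared regions. The RD list went down to 23 tags and the RH18 list to 15, and each list had its own lowest p-value, so a missing counterpart means no listed region.

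In the whole RD list, unshared regions had a median width of 276 bp and a median of 59 tags, and shared regions 443 bp and 109 tags. The 4 RD regions of the windows without an RH18 counterpart had medians of 240 bp and 66 tags. They lay at chr19:12912276-12912525 in the JUNB window (84 tags), chr14:75744758-75745062 in the FOS window (71 tags), and chr2:28569309-28569497 and chr2:28637222-28637451 in the FOSL2 window (43 and 61 tags). The nearest RH18 region was 4352 bp from the first and 142, 19 and 106 bp from the others.

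For the stretches listed in both lines, RH18 and RD summit tags were compared directly. The RH18 over RD ratio was scaled to its median over the 20000 such stretches of the genome, because the sources used here give no total of reads. Of the 38 stretches in the windows, 4 were more than 2-fold higher in RH18, where 9.06% of all stretches were, and 2 were more than 2-fold lower in RH18, where 13.9% of all were. The 4 higher stretches lay in the FOSL1 and FOSL2 windows and the 2 lower ones in the FOS window. The windows' median was 0.29 on the log2 scale, against 0 by construction over the genome. RH18 regions covered more bases than RD regions in 81.6% of the 38 stretches, and in 70.7% of all.

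The ratio depended on the tag level over the whole genome. Among 10 equal classes of stretches by tag level its median was -0.52 in the lowest class, -0.55 in the next and 0.4 in the highest. The RD list reached at most 319 tags and the RH18 list 443. Scaled to stretches of like tag level, 2 of the 38 were more than 2-fold higher in RH18 (10.7% of all) and 1 was more than 2-fold lower (8.91% of all). With the local background taken off, the numbers were 4 and 2, where 9.34% and 15.1% of all stretches passed. With tags summed over all regions of a stretch, which counts every one of the RD regions that face 1 RH18 region, they were 2 and 3, where 11.5% and 12.4% of all passed. With the scale set on stretches above the median tag level they were 2 and 2 (6.04% and 19.2% of all). Among the 29 stretches of peaks with a single tag solution they were 3 and 1 (4.89% and 12.9% of all such stretches), and past 3-fold they were 0 and 0 (2.99% and 4.90% of all).

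**Figure D3:**
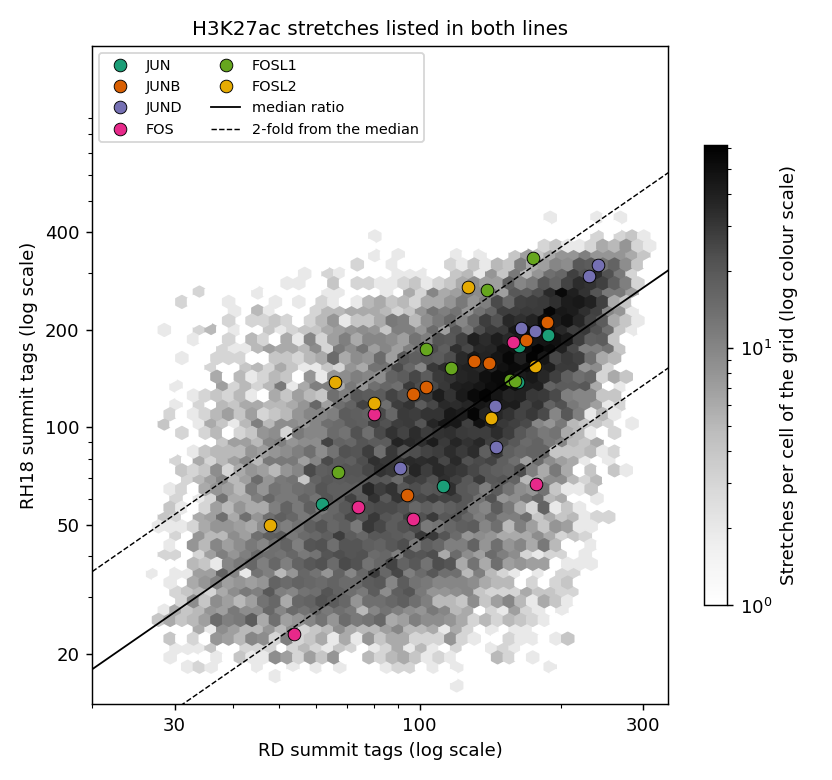
Summit tags in RD (x axis) and RH18 (y axis), log scales, for 20000 stretches listed in both lines (grey) and the 38 in the AP-1 windows (coloured by gene). The solid line is the median ratio and the dashed lines lie 2-fold from it; 4 FOSL1 and FOSL2 points lie above the upper line and 2 FOS points below the lower.

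JUN, the founding member of its family, had a pair of neighbouring acetylated stretches in the middle of its window in each line. The RH18 regions chr1:59247482-59249710 and chr1:59249963-59251434 had 178 and 193 tags, and the RD stretches facing them had 163 and 188. The log2 ratios were 0.28 (95% interval -0.03 to 0.6) and 0.19 (-0.1 to 0.49), so neither differed from the genome's median beyond counting error. The RH18 pair was separated by 252 bp without a listed region, and the RD regions by 414 bp. The RD background under these stretches was 9.4 and 11 times the lowest of its list, against 1.52 times in RH18. The acetylated region chr1:59281513-59282462 had 138 tags in RH18 and 162 in RD (-0.08, -0.41 to 0.26). The RD region of highest fold in the window, chr1:59238827-59239235, had fewer tags in RH18, with 66 against 112 in RD (-0.61, -1.07 to -0.16), which is less than 2-fold.

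JUNB, an antagonist of JUN in some settings and an activator in others, had a dense run of regions in its window. The RH18 region of highest fold, chr19:12888597-12890841, had 211 tags, against 187 in RD (0.33, 0.04 to 0.62), and 0.09 at like tag level. The next, chr19:12899181-12900500, had 186 tags in RH18 and 169 in RD (0.29, -0.01 to 0.6). In RH18 the 1377 bp region chr19:12896432-12897808, with 114 tags, had no RD counterpart. It lay in a gap of 4.74 kb without an RD region that held 3 RH18 regions. RH18 regions were wide where RD had narrow ones: at chr19:12902315-12904377 RH18 covered 2063 bp and RD 457 bp, while the summit tags were 133 and 103 (0.52, 0.14 to 0.91). Over the 7 shared stretches the ratio ran from -0.44 to 0.54, and from -0.2 to 0.56 at like tag level.

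JUND is the most broadly expressed of the JUN genes, and its window held the RD regions with the most tags in the 6 windows. The 2992 bp RH18 region chr19:18413909-18416900 had 317 tags, rank 275 of the list by tags, and the RD region in it, chr19:18414910-18416338, had 240, rank 607 of the RD list. The RH18 region chr19:18392815-18394052 had 292 tags and its RD counterpart chr19:18392871-18393945 had 230. The log2 ratios were 0.56 (0.31 to 0.81) and 0.5 (0.25 to 0.76). At like tag level they were 0.16 and 0.1. The stretch chr19:18402377-18403619 had 87 tags in RH18 and 146 in RD (-0.59, -0.99 to -0.2), and was more than 2-fold lower in RH18 with summed tags (-1.24). All 10 RD regions overlapped an RH18 region, and the only unshared RH18 region among 8 had 43 tags.

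FOS, the immediate-early gene, had the window with the fewest covered bases in each line, though not the fewest regions. Its RH18 regions had a median width of 370 bp and its RD regions 286.5 bp, and the widest, chr14:75725231-75726292, spanned 1062 bp in RH18. That region had 183 tags in RH18 and 158 in RD (0.37, 0.05 to 0.68), and 0.13 at like tag level. The 302 bp RH18 region chr14:75745204-75745505 had 67 tags, against 177 in RD, a log2 ratio of -1.25 (-1.67 to -0.83). It was the lowest ratio in the windows, with a background of 7.83 times the lowest in RD and 1.17 times in RH18. It stayed past 2-fold at like tag level (-1.23) and with the background taken off (-1.22). The second stretch more than 2-fold lower in RH18, chr14:75762267-75762916, had 23 tags in RH18 and 54 in RD (-1.08, -1.85 to -0.35). At like tag level its ratio was -0.55. Its RH18 count had 2 tag solutions and its RD count 3, which the interval does not cover. Of the 6 shared stretches, 4 lay below the genome's median ratio, and 3 did at like tag level or with summed tags.

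The window of FOSL1, which encodes FRA1, held the region of highest fold in the 6 windows. No region was placed against a gene start, and 11 other protein-coding genes were listed beside FOSL1. The RH18 region chr11:65681610-65686472 spanned 4863 bp with a fold of 106, rank 83 of 46408, and 333 tags. The RD regions in it, chr11:65682240-65684152 and chr11:65685914-65686353, had 175 and 134 tags. The log2 ratio of the highest tags was 1.08 (0.82 to 1.36), and 0.68 at like tag level, and 0.5 with summed tags, both less than 2-fold. The region chr11:65626504-65629052 had 265 tags in RH18 and 139 in RD (1.09, 0.79 to 1.39), 0.85 at like level and 0.59 with summed tags. The RD count of 139 had 2 tag solutions, and with single-solution peaks only the ratio was 1.66. The background of this stretch was 2.27 times the lowest in RH18 and 14.1 times in RD. The stretch chr11:65655017-65657083 had 139 tags in RH18 and 160 in RD (-0.05, -0.39 to 0.29), and was more than 2-fold lower in RH18 with summed tags (-1.02), where 3 RD regions faced 1 RH18 region. A gap of 26.3 kb without an RD region held 5 RH18 regions covering 4.48 kb, with at most 133 tags.

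FOSL2 encodes FRA2, and its window held the RH18 region with the most tags in the 6 windows, where RD listed nothing. The 2710 bp region chr2:28577806-28580515 had 370 tags and a fold of 103 in RH18, rank 46 of 46408 by tags. Among the 25501 RH18 regions without an RD counterpart it had rank 7 by tags and rank 11 by fold. The nearest RD region was 7001 bp away. It lay in a gap of 17.6 kb without an RD region, chr2:28569963-28587515, in which RH18 had 5 regions covering 7.3 kb. The RD list had its region of highest fold in the window at the end of this gap, chr2:28587516-28588773, with 142 tags, against 107 in RH18 (-0.25, -0.63 to 0.12).

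Outside this gap the FOSL2 window held 26 RH18 regions, of which 7 overlapped an RD region and 19 did not. The RH18 regions chr2:28612748-28614340 and chr2:28614430-28616905 had 216 and 270 tags, and the highest of the 4 RD regions they overlapped had 127. The log2 ratio was 1.24 (0.93 to 1.56), 1.01 at like tag level and 0.47 with summed tags, which is less than 2-fold, with a background of 5.31 times the lowest in RH18 and 4.16 times in RD. At chr2:28569516-28570435 RH18 had 138 tags and RD 66 (1.22, 0.79 to 1.67), 1.34 at like level and 1.46 with summed tags. The RD count of 66 had 2 tag solutions, which the interval does not cover. This stretch was therefore not among those of single-solution peaks. At chr2:28635270-28637116 the lines did not differ beyond counting error, with 155 tags in RH18 and 176 in RD (-0.03, -0.35 to 0.29).

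MYF5 peaks were listed in all 6 windows. There were 9 in the FOSL2 window, 7 for FOSL1, 4 for JUND, 3 for JUNB, 2 for FOS and 1 for JUN. Among windows of equal length with acetylation in each line, 0.576% held as many MYF5 peaks as FOSL2, 1.25% as many as FOSL1, 6.03% as many as JUND, 11.8% as many as JUNB, 24.5% as many as FOS and 54.1% as many as JUN. The peaks were of modest height: 19 of 26 lay under the list's median fold of 11.2, while their median of 42 tags equalled that of the list. Their background had a median of 1.95 times the lowest, against 1.27 times in the list. Signal bound by MYF5 and unspecific signal were not told apart, since no mock immunoprecipitation was used.

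The MYF5 summits sat in or beside acetylated chromatin. Of the 26, 22 (84.6%, 65.1 to 95.6%) lay inside an RH18 H3K27ac region, where 55.2% of the whole list did. All 26 lay within 500 bp of an RH18 region, where 72.1% of the list did, and the farthest was 228 bp away. In RD, 14 (53.8%, 33.4 to 73.4%) lay inside a region, where 39.9% of the list did, and 23 lay within 500 bp, where 62.9% did. All 6 windows hold acetylated regions, so a share above the list's describes these windows and was not tested. Seen from the other side, 18 of 95 RH18 regions (18.9%, 11.6 to 28.3%) held a MYF5 summit, where 12.0% of all did. In RD 11 of 62 (17.7%, 9.2 to 29.5%) did, where 9.71% of all did.

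**Figure D4:**
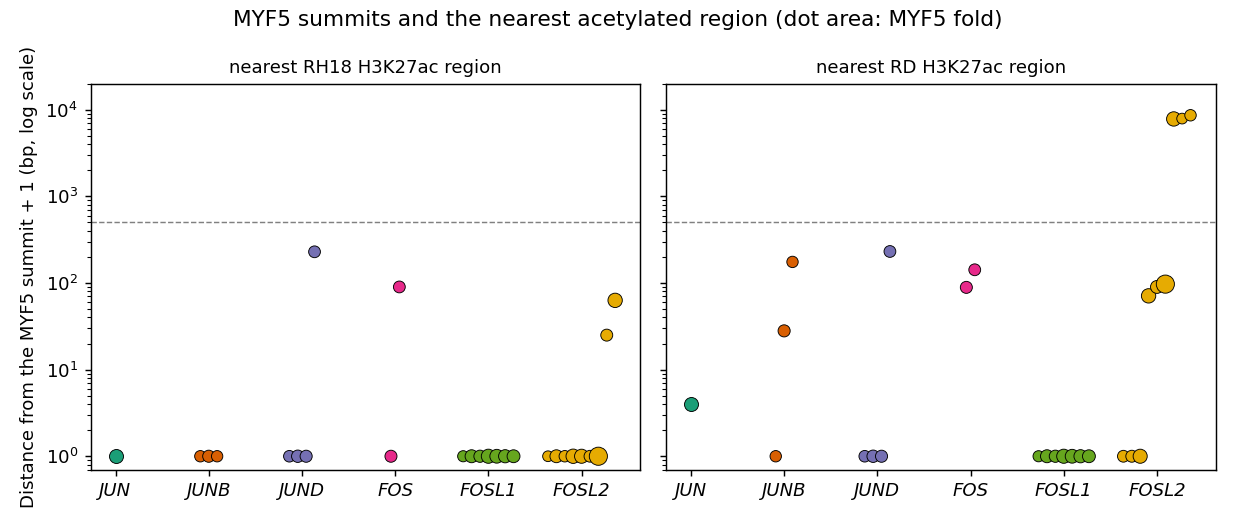
Distance from each of the 26 MYF5 summits to the nearest RH18 (left) and RD (right) H3K27ac region, in bp plus 1 on a log scale, by gene; dots at the bottom lie inside a region, dot area grows with MYF5 fold, and the dashed line marks 500 bp. All 26 lie under the line in RH18, and 3 FOSL2 summits lie above it in RD.

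The MYF5 peak of highest fold in the 6 windows was in the FOSL2 window. It had a fold of 22.2 and 73 tags at chr2:28636406-28636716, a higher fold than 91.2% of the list. Its summit lay inside the RH18 region chr2:28635270-28637116 and between RD regions, in a gap of 463 bp, 96 bp from the nearest. The large RH18-only region of the FOSL2 window held 2 summits, at chr2:28578515-28578756 (fold 7.06, 24 tags) and chr2:28579188-28579812 (fold 12.8, 57 tags). They lay 8625 and 7822 bp from the nearest RD region. A further FOSL2 summit far from RD acetylation, at chr2:28561330-28561501 (fold 5.81, 25 tags), lay 7898 bp away and inside an RH18 region of 124 tags.

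In the FOSL1 window all 7 summits lay inside acetylated regions of each line. The wide region chr11:65681610-65686472 held 3 of them, with folds of 11.6, 10.3 and 9.71 and 39, 33 and 30 tags. The highest fold in the window was 12.3, at the 1049 bp peak chr11:65658867-65659915 with 46 tags. MYF5 summits lay in RD regions in 7 of 7 cases for FOSL1 and in 3 of 9 for FOSL2 (33.3%), where 39.9% of the whole list did. Within 500 bp of an RD region the counts were 7 of 7 and 6 of 9, and the difference between the windows was not tested.

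At JUN the only MYF5 peak, chr1:59249525-59249730 (fold 12.0, 42 tags), had its summit inside an RH18 region of 178 tags and 3 bp outside the RD region. In RD it stood in the 414 bp gap between the central acetylated regions. At FOS, the peak chr14:75745493-75745705 (fold 7.7, 57 tags) had its summit 89 bp from the RH18 region of 67 tags and 141 bp from the RD region of 177 tags. The other FOS peak, chr14:75709250-75709444 (fold 8.08, 53 tags), lay inside an RH18 region and 88 bp from an RD region. At JUNB all 3 summits lay inside RH18 regions and 1 inside an RD region. The peak chr19:12902220-12902479 had the most tags in the windows, 93, over a background of 7.79 times the lowest, and so a fold of 6.91. At JUND 3 of 4 summits lay inside regions of each line, 2 of them in the region of 317 RH18 tags, with folds of 8.77 and 8.21.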

How the data were processed

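H3K27ac peak lists of RH18 and RD and a MYF5 list of RH18 were used, 1 list per library; no file of the 2 input samples was analysed here. Per the submitters' processing notes, the build was hg19 and the tools included BWA (0.7.10) and MACS2 (2.1.0); control and threshold are not stated. Per the deposited lists, each entry has a position, a fold (a ratio over local background), a −log10 p-value and q-value, a summit and a score; all are the authors', and the score, a rescaled p-value, was not used. The lowest −log10 p-value was 7.09 in RH18 H3K27ac, 5.0 in RD H3K27ac and 9.09 in MYF5.

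Summit tags and background were recovered by solving the peak caller's fold (pileup plus 1 over background plus 1) and Poisson tail for each entry. A tag was worth 0.8322 pileup units in RH18 H3K27ac, 0.2727 in RD H3K27ac and 0.6577 in MYF5, so folds of the lines were not compared. In each list, 100% of entries gave a whole number of tags to within 0.1. More than 1 solution existed for 13.8%, 55.3% and 30.7% of the entries, in the same order, and the one nearest a whole tag was taken. The step was also run on peaks simulated with the same formulas, which cannot show that the formulas hold for these lists.

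Regions were shared at an overlap of 1 bp or more, and MYF5 peaks were placed by summit. Shares have exact Clopper-Pearson intervals and tag ratios conditional exact binomial intervals (95%). The 3 regions of highest fold per window and list and every MYF5 peak could be named; other named regions were chosen after their values were seen. The genes, windows and tests were chosen with earlier results of these data known. The planned lists of other AP-1 genes and muscle markers need an hg19 annotation and were not run. Computation used scipy 1.17.1, numpy 2.4.6 and pandas 2.3.3 under Python 3.11.15, and plots matplotlib 3.10.9.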

Additional observations from a re-analysis of the deposited data

How the results depend on the processing

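No paired analysis was possible because each group held 1 library. Of 50 alternatives to the counts and shares over all 6 windows, 36 stayed within the interval or within 1.5 times, and 14 moved. Asking for an overlap of 50% of both regions gave 23.2% of RH18 and 35.5% of RD regions shared (25.6% and 27.5% of the whole lists), and counting RD regions within 500 bp of RH18 gave 98.4% (66.6%). Without the FOSL1 and FOSL2 windows, chosen after seeing the data like the scale at like tag level, 65.8% of RH18 regions were shared. Of the MYF5 summits, 100% and 88.5% lay within 500 bp of RH18 and RD regions (72.1% and 62.9% of the whole list), and 96.2% of the peaks overlapped an RH18 region (64.1%). The number of stretches more than 2-fold higher in RH18 was 2 in place of 4 with the scale set on the stretches above the median tag level (6.04% of all stretches), with summed tags (11.5%) or at like tag level (10.7%). The number more than 2-fold lower was 1 in place of 2 with single-solution peaks (12.9%) or at like level (8.91%), and 3 with summed tags (12.4%). Past 3-fold, 0 were higher (2.99% of all) and 0 lower (4.90%). Of 124 alternatives for single windows, ranks and the 6 stretches past 2-fold, 24 moved. None of these 6 stretches changed sign where it could be compared. With single-solution peaks chr14:75762267-75762916 and chr2:28569516-28570435 could not be. Among all 38 stretches, 8 changed sign with summed tags, 2 of them with an interval that left out 0: chr19:18390607-18391674 in the JUND window (0.45 as reported, -0.3 summed) and chr19:12916877-12918071 in the JUNB window (0.44 and -0.25). At like tag level 3 changed sign. Sign changes over all stretches of the genome were not counted. The cause of these changes was not tested. Unknown library depth, lists ending at different p-values and 1 library per group limit every comparison of the lines. DNA copy number was not examined, and the tag ratios were not corrected for it.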
